A study of Mus musculus with 18 samples.

Results

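Chromosome segregation in the egg depends on a small set of kinases and checkpoint proteins, and 10 of their genes were followed here across mouse oocyte development. They were the Aurora kinases Aurka, Aurkb and Aurkc, the Aurora activator Tpx2, the chromosomal passenger subunits Incenp and Birc5 (survivin), the checkpoint kinases Ttk (Mps1) and Bub1, and the checkpoint proteins Bub1b (BubR1) and Mad2l1 (Mad2). The genes were chosen by name, and 10 of 10 were found among the genes with counts and among those with a TPM value. TPM is the count of a gene divided by its length and scaled so that a library sums to 1000000, and it is the scale on which levels of different genes are compared here.

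As background, the spindle checkpoint holds back anaphase until every kinetochore is attached to microtubules. Ttk and Bub1 start the signal at unattached kinetochores, and Mad2l1 and Bub1b block Cdc20, the activator of the anaphase-promoting complex (APC/C). Aurora A works with Tpx2 at spindle poles, whereas Aurora B or Aurora C joins Incenp and Birc5 in the passenger complex, which releases faulty attachments. Aurora C is known mainly from germ cells. Oocytes in primordial and primary follicles are arrested in prophase of meiosis, and MII oocytes are ovulated eggs arrested at metaphase of the second division with a spindle in place.

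Bulk RNA sequencing covered 3 stages, namely MII oocytes and the oocytes of primordial and of primary follicles, taken from sham animals and from a group labelled NTY, a name that the labels do not explain. Each of the 6 groups held 3 libraries, 18 in all, from a cross given as C57Bl/6j x CBA/J, and every library was marked as in vivo. The labels state no age, no dose and no number of animals, and their protocol says that captured material of one stage was pooled at extraction. The libraries of primordial and primary follicles are called microdissected here, because the protocol describes laser capture, linear amplification and capture of coding RNA for such oocytes, and Smart-seq II for collected oocytes, which the MII oocytes were taken to be. The library method thus differed along with the stage between MII and microdissected oocytes, the parts of each cannot be told apart, and no test was made between them.

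Total counts ran from 15149564 to 29205503 in the 12 microdissected libraries and from 8652089 to 9978830 in the 6 MII libraries. A gene with 0 counts could still have had up to 3 counts at this depth, which is 0.103 to 0.198 CPM (counts scaled to a library total of 1000000) in a microdissected library and 0.301 to 0.347 CPM in an MII library. Such limits cover the error of counting only, because the RNA was amplified before it was read. Nothing in the labels says that replicates came from separate animals, so p-values measure the spread between these libraries, which may be technical, and are too small if libraries share an animal.

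The label of the cells was checked against lists of marker genes. In MII oocytes the 15 oocyte markers summed to 7400 to 11475 TPM, led by the oocyte growth factor Gdf9 (4762 to 7844 TPM), while the 6 stroma markers summed to at most 1.29 TPM. The 14 granulosa markers summed to 54.6 to 123 TPM there, led by Esr2, and Foxl2, Amhr2, Wt1 and Fst were at 0 in all 6 libraries. In microdissected libraries 12 of the 15 oocyte markers were lower by mean than in MII, with Gdf9 at 91.4 TPM, and Zp1, Lhx8 and Kit, the last 2 chosen for naming after their values were seen, were not lower. The oocyte markers summed there to 3.92 to 2113 TPM (median 602), with Dazl and Zp1 the most abundant by mean, the granulosa markers to 380 to 3933 TPM (median 1820), led by Inha and Wt1, and the stroma markers to 460 to 7486 TPM (median 1399), led by Col1a1. Granulosa markers summed to more than oocyte markers in 10 of the 12 libraries, so the levels of microdissected oocytes given here are those of mixed material. The 8 endothelium and blood markers summed to 0 to 174 TPM in microdissected libraries (median 4.33), where the highest sum was that of primary sham replicate 1 and came from the haemoglobin gene Hba-a1. They summed to 39.7 to 78.0 TPM in MII libraries (median 61.3), led by Pecam1. In such bulk samples, fewer oocytes and less RNA per oocyte cannot be told apart.

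The library labelled primordial NTY replicate 3 stood apart and goes against its label. Its oocyte markers summed to 3.92 TPM, with Bmp15, Zp1, Figla, Ooep and Padi6 at 0 and 4 of 15 markers at 10 or more counts, and its granulosa and stroma markers summed to 3451 and 5802 TPM. The 10 spindle genes summed to 1.44 TPM in it, the lowest of the 18 libraries. The single-gene fold changes and the medians over members and gene lists that use its group are given also without it.

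**Figure D1:**
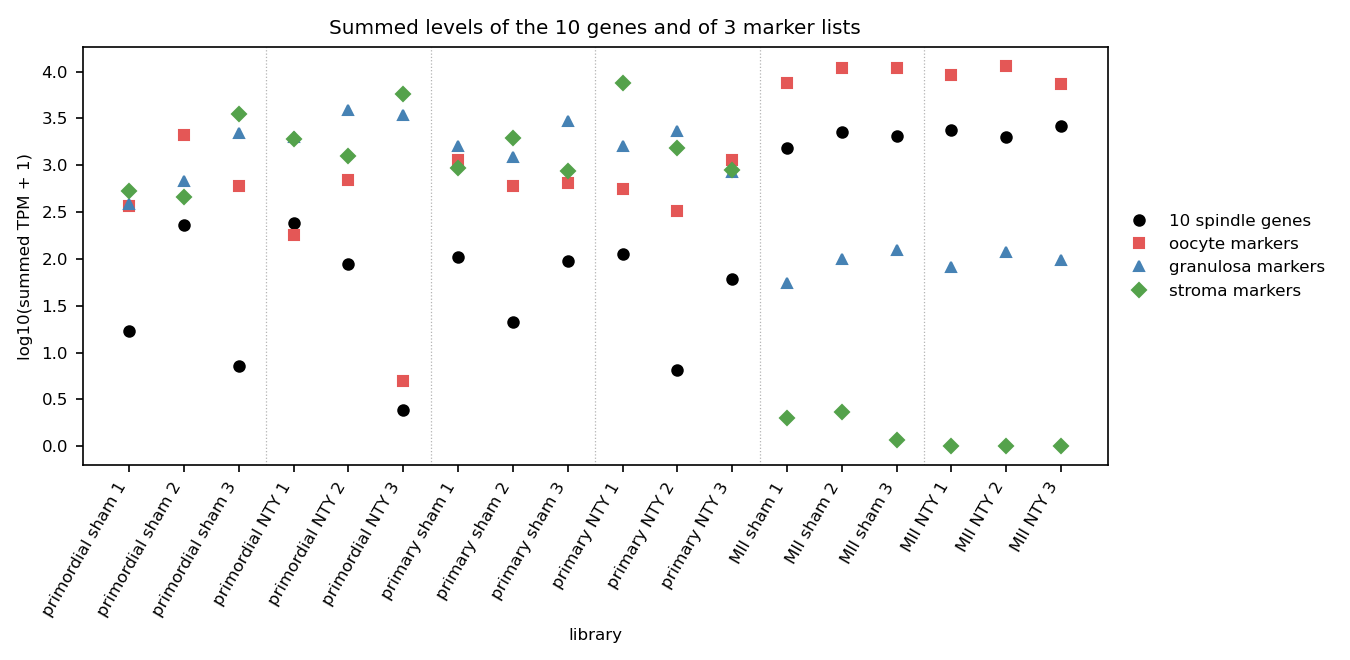
Summed TPM (vertical axis, log10 of the sum plus 1) of the 10 spindle genes and of the oocyte, granulosa and stroma marker lists in each of the 18 libraries (horizontal axis), one point per library and list. The 10 genes sum to 1519 to 2640 TPM in MII libraries and to 1.44 to 242 TPM in microdissected libraries, with primordial NTY replicate 3 lowest for both the 10 genes and the oocyte markers.

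MII oocytes held abundant RNA of most of these genes. The checkpoint protein gene Bub1b was the highest, at 910 ± 342 TPM (SD, n = 6), with a median rank of 140 among all genes of a library. Aurkc followed at 406 ± 112 TPM (SD, n = 6, median rank 339), and Aurka came next at 220 ± 61.8 TPM (SD, n = 6). At the other end stood the kinase genes Bub1, at 8.19 ± 7.81 TPM (SD, n = 6), and Aurkb, at 4.18 ± 3.94 TPM (SD, n = 6). Thus the checkpoint paralogs Bub1b and Bub1 lay at opposite ends of the order, and so did the germ cell kinase gene Aurkc and Aurkb, the passenger kinase gene of dividing somatic cells.

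Between these ends came Tpx2 at 184 ± 56.0 TPM, Mad2l1 at 177 ± 26.9 TPM, Birc5 at 101 ± 37.7 TPM, Incenp at 87.4 ± 19.0 TPM and Ttk at 46.5 ± 20.9 TPM (SD, n = 6 for each). Neighbours in this order overlapped between libraries, except that each value of Bub1b lay above each of Aurkc, Mad2l1 above Birc5, and Ttk above Bub1. The passenger subunits Birc5 and Incenp were therefore not set apart from each other, and neither were Aurkc and Aurka or Aurka and Tpx2 over all libraries, although by TPM Aurkc was above Aurka within each of the 6.

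The values of single MII libraries show how even these levels were. Bub1b had 611, 917 and 810 TPM in the sham libraries and 846, 702 and 1572 TPM in the NTY libraries. Aurkc had 311, 407 and 388 TPM in sham and 578, 479 and 273 TPM in NTY. Both groups overlapped for both genes, and NTY replicate 3 held the highest Bub1b and the lowest Aurkc value of the 6 libraries. That library was also the highest for Mad2l1 (220 TPM) and Tpx2 (256 TPM) and the lowest for Aurka (142 TPM), Incenp (55.3 TPM) and Birc5 (47.6 TPM), whereas sham replicate 1 was the lowest for Bub1b, Ttk, Tpx2 and Aurkb.

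Low members were uneven in MII oocytes. Bub1 had 106, 208 and 53 counts in sham and 0, 322 and 71 counts in NTY. Aurkb had 1, 31 and 87 counts in sham and 86, 44 and 1 counts in NTY. A library with next to no counts of one of these genes thus occurred in both groups for Aurkb and in the NTY group for Bub1. The other 8 members had at least 462 counts in every MII library.

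**Figure D2:**
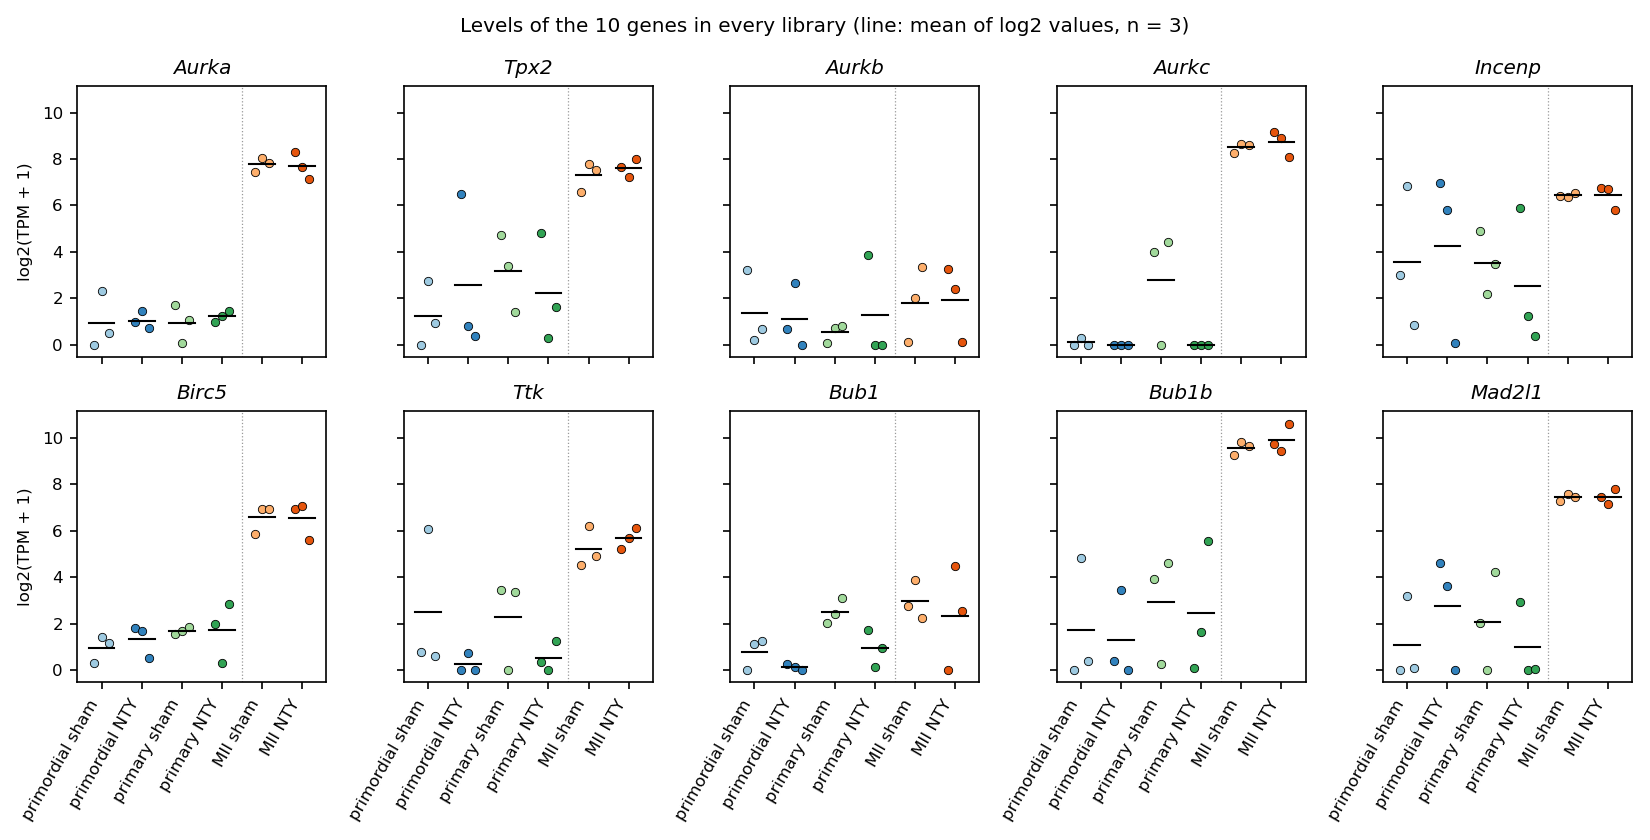
Level of each of the 10 genes in every library (vertical axis, log2(TPM + 1)) by group (horizontal axis), with one point per library and a line at the mean of the log2 values, n = 3 per group. The dotted line parts microdissected from MII libraries, which were made by different methods, and 6 of the 10 genes (Aurka, Aurkc, Bub1b, Mad2l1, Birc5 and Tpx2) have every MII value above every microdissected value.

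Microdissected libraries, which also held RNA of granulosa and stroma markers, held little and uneven RNA of the same genes. Of the 10 members, 3 to 10 had at least 10 counts in a microdissected library (median 6), against 9 to 10 in an MII library. Their summed level was 1.44 to 242 TPM (median 73.2), and it was over 200 TPM in primordial sham replicate 2 (228 TPM) and primordial NTY replicate 1 (242 TPM) and under 10 TPM in primordial sham replicate 3 (6.26 TPM), primordial NTY replicate 3 (1.44 TPM) and primary NTY replicate 2 (5.49 TPM). High and low libraries occurred in both treatments.

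The order of the members differed from that in MII oocytes. Incenp, the scaffold of the passenger complex, was the highest by mean, at 33.4 ± 44.6 TPM (SD, n = 12, median 8.50). It ranged from 0.0394 TPM in primordial NTY replicate 3 to 124 TPM in primordial NTY replicate 1, and it had 10 or more counts in 10 of 12 libraries. Tpx2 (mean 13.7 TPM, range 0 to 90.1), Bub1b (10.4, 0 to 46.7), Ttk (7.52, 0 to 67.6) and Mad2l1 (5.88, 0 to 23.6) followed. The SD over the 12 libraries exceeded the mean for Incenp and for each of these, from 8.01 TPM for Mad2l1 to 44.6 TPM for Incenp, so their order is not set apart by the spread between libraries. The mean of Tpx2 rests on primordial NTY replicate 1 and that of Ttk on primordial sham replicate 2, with medians of 1.86 and 0.596 TPM.

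Lower still by mean were Aurkc (2.96 ± 6.97 TPM), Aurkb (2.48 ± 4.31 TPM), Birc5 (2.04 ± 1.60 TPM), Bub1 (1.75 ± 2.27 TPM) and Aurka (1.26 ± 1.08 TPM; SD, n = 12 for each). By median the order differed. Birc5, at 2.06 TPM, lay above Tpx2 (1.86), Mad2l1 (1.55), Bub1b (1.24) and Ttk (0.596). The medians of Bub1 (1.05 TPM) and Aurka (1.01 TPM) also lay above that of Ttk. The mean of Aurkc rests on 2 libraries. That of Aurkb rests on primary NTY replicate 1 (13.5 TPM), primordial sham replicate 1 (8.20 TPM) and primordial NTY replicate 2 (5.36 TPM). The median of Aurkb was 0.594 TPM. Birc5 was the steadiest, with 4 to 168 counts and no library at 0. Aurkc was the most often missing. It had 0 counts in 9 of 12 libraries, 3 counts in primordial sham replicate 2, and 156 and 251 counts in primary sham replicates 1 and 3. Its detection at 10 or more counts was thus found in 2 libraries, both of the primary sham group. These were also the microdissected libraries with the most genes with a count, 12955 and 13755.

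The shares of the 3 Aurora kinase genes were steady in MII libraries and uneven in microdissected libraries. In MII oocytes Aurkc made up 60.3% to 70.1% of the summed Aurora TPM, Aurka 29.3% to 39.2%, and Aurkb 0.0165% to 1.46%. This order, Aurkc over Aurka over Aurkb, was the same in all 6 MII libraries by TPM. By counts, without gene length, Aurka (51.6%) was above Aurkc (47.7%) in MII sham replicate 2. In each other MII library Aurkc was above Aurka by counts too. Among microdissected libraries the leading kinase gene was Aurkb in 5, Aurka in 5 and Aurkc in 2, on a summed level of 0.651 to 22.3 TPM. With 13 to 334 counts on the 3 genes together, single libraries gave shares from 0% to 100% for Aurka and for Aurkb.

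The share of Aurkc in MII oocytes was compared between treatments, since a share within a library does not depend on its depth. It was 64.0%, 60.3% and 62.5% in the sham libraries and 64.3%, 70.1% and 65.7% in the NTY libraries. Every NTY value was above every sham value, though the closest pair differed little. The means were 62.3% ± 1.82 (SD, n = 3) for sham and 66.7% ± 3.02 (SD, n = 3) for NTY, a difference of 4.43 percentage points (exact two-sided permutation test, p = 0.1). That is the smallest p that 3 libraries against 3 allow, so the test could not pass 0.05. Without NTY replicate 2 the difference was 2.73 points. The number of genes with a count was also apart between these groups, at 15442, 18239 and 16142 in sham and 13608, 12926 and 12782 in NTY, and its part in the shares was not tested.

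**Figure D3:**
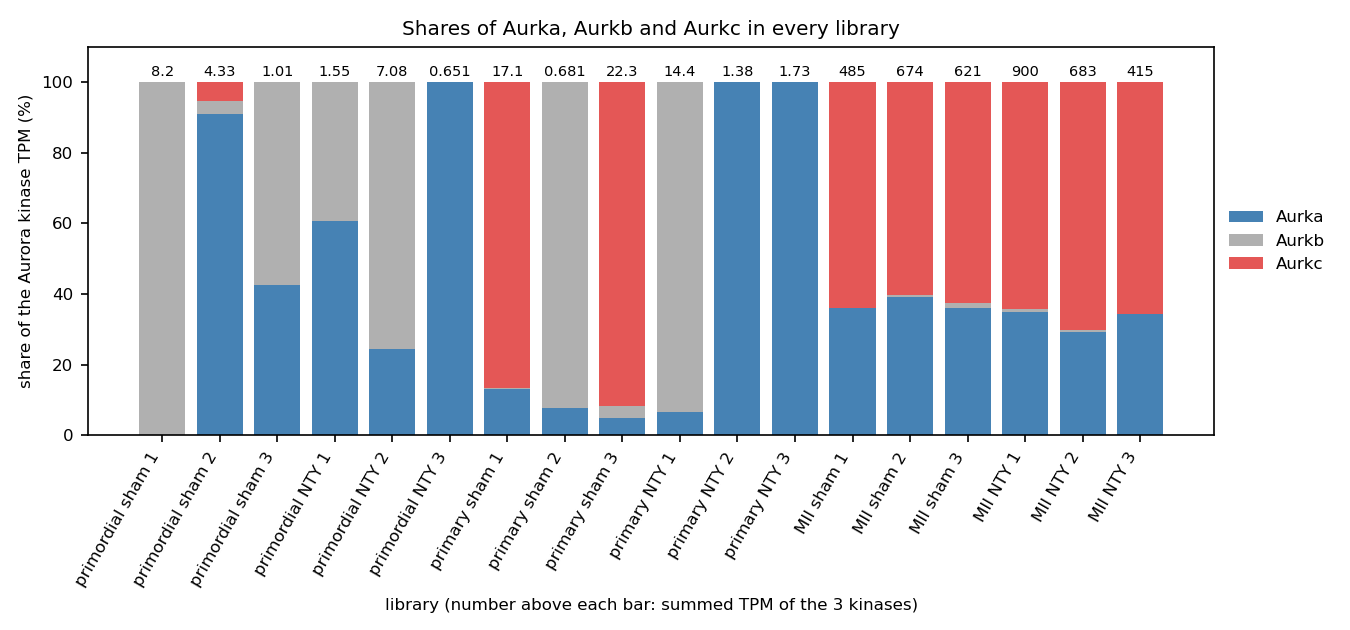
Share of the summed Aurora kinase TPM held by Aurka, Aurkb and Aurkc (vertical axis, %) in each of the 18 libraries (horizontal axis), with the summed TPM of the 3 genes above each bar. Aurkc holds 60.3% to 70.1% in every MII library, whereas most microdissected libraries have Aurka or Aurkb alone or in the lead, on sums of 0.651 to 22.3 TPM.

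The Aurkc values carry a limit of their own. Of the distinct stretches of 50 bases in its transcripts, 54.8% also occur in transcripts of 10 other annotated genes, and how the counting treated reads that match several genes is not stated. The most counted of these copies were Gm12463, with 86 to 168 counts in MII libraries (5.64% of the Aurkc counts there), and Gm7789, with 38 to 103 (3.69%). The Aurkc level is therefore uncertain. For Aurka, Aurkb, Bub1, Bub1b and Incenp the shared part was 0%, and for the other 4 members it was at most 2.09%.

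NTY was compared with sham in MII oocytes to ask whether the treatment goes with a change in eggs. Bub1b, Tpx2 and Ttk had the smallest unadjusted p of the 10 members. For Bub1b, with the values given above, the log2 fold change was 0.51 (SE 0.37, adjusted p = 1). For Tpx2 the sham libraries had 95.9, 218 and 184 TPM and the NTY libraries 199, 148 and 256 TPM, with a log2 fold change of 0.39 (SE 0.34, adjusted p = 1). For Ttk, the kinase gene at the start of the checkpoint signal, they had 22.4, 72.3 and 28.8 TPM and 35.9, 50.7 and 68.8 TPM, with a log2 fold change of 0.46 (SE 0.45, adjusted p = 1). The groups overlapped for each of them, and without NTY replicate 3 the log2 fold change was -0.036 for Bub1b, 0.080 for Tpx2 and 0.088 for Ttk. Without 1 library at a time it reached 0.62 for Tpx2, when NTY replicate 2 was left out, and 0.96 for Ttk, when sham replicate 2 was left out.

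The quasi-likelihood test of edgeR called 0 of 10 members in MII oocytes, and 0 members had an unadjusted p under 0.05, among 12209 genes of which 0% were called and 280 had an unadjusted p under 0.05. DESeq2 also called 0 members, while it called 0.238% of all genes, and limma, with voom and on log2(TPM + 1), called 0 members here and in each of the other 5 comparisons. The fitted log2 fold change was above 0 for 10 of 10 members, with a median of 0.17, beside a median of 0.0038 over all genes. It was above 0 for 10 of 10 with RLE scaling, 9 of 10 with voom and 6 of 10 on log2(TPM + 1), and for 6 to 8 of 10 when any 1 library was left out, so the shared direction depends on the scale and on single libraries. The members' median was 0.060 without NTY replicate 1, 0.27 without NTY replicate 2 and 0.075 on log2(TPM + 1). No member had groups that did not overlap, which 2.30% of genes did with NTY higher and 6.00% with NTY lower.

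In oocytes from primordial follicles, the question was whether NTY goes with a change at the resting stage. Ttk had 17, 2831 and 16 counts in sham and 0, 24 and 0 counts in NTY. One sham library held nearly all of these counts, and the NTY library with 24 counts lay above 2 of the sham libraries by count. By TPM it lay between these, at 0.688 TPM against 0.505 and 0.733 TPM. The log2 fold change was -6.91 (SE 3.82, adjusted p = 0.52), and it was -1.72 without sham replicate 2, -6.39 without NTY replicate 3 and, against 2 NTY libraries at 0 counts, where it is no bound, -12.67 without NTY replicate 2. Tpx2, the Aurora A activator gene, had 0, 231 and 27 counts in sham and 2825, 24 and 11 counts in NTY, with a log2 fold change of 3.70 (SE 3.17, adjusted p = 0.74). This value rests on NTY replicate 1, without which it was -2.09, and it was 4.28 without NTY replicate 3.

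With edgeR, 0 of the 9 members that passed the filter on low counts were called in this comparison and 0 had an unadjusted p under 0.05, where 0.0095% of 10522 genes were called and 1145 genes had an unadjusted p under 0.05. Aurkc did not pass the filter in the microdissected fit. DESeq2 called 0 members and 11.5% of all genes, with 1 member and 2310 of the 10522 genes at an unadjusted p under 0.05. By edgeR, 4 members had a positive and 5 a negative log2 fold change, with a median of -0.41 beside 0.12 over all genes, while the members' median was 0.014 with RLE scaling and 1.14 with voom. No member's groups were apart, against 5.19% of genes with NTY higher and 2.78% with NTY lower. Without NTY replicate 3, the library that went against its label, 0 of 10 members tested were called, with a median of -0.40, and without sham replicate 2 the median was 1.74.

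In oocytes from primary follicles, Aurkb had 1, 14 and 18 counts in sham and 315, 0 and 0 counts in NTY. The log2 fold change of 3.55 (SE 3.02, adjusted p = 0.96) rests on NTY replicate 1, and without it the value was -6.26, which is no bound, since the NTY group then held 0 counts. Ttk had 334, 0 and 369 counts in sham and 10, 0 and 54 counts in NTY, with a log2 fold change of -3.01 (SE 3.19, adjusted p = 1). The sham library at 0 counts lay below the NTY libraries at 10 and 54 counts, so these groups overlapped. The log2 fold change was -4.98 without NTY replicate 3 and -1.74 on log2(TPM + 1). Aurkc, left out by the filter, had 156, 0 and 251 counts in sham and 0 counts in each NTY library. The sham libraries with Aurkc counts had 12955 and 13755 genes with a count, against 10255, 7474 and 9611 in NTY. The part of this difference in the Aurkc values was not tested.

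Bub1 was the member whose groups did not overlap in primary follicles. The sham libraries had 3.03, 4.28 and 7.51 TPM (91, 141 and 263 counts) and the NTY libraries 2.31, 0.0964 and 0.917 TPM (80, 3 and 32 counts), so NTY was lower in 3 of 3 libraries. The number of genes with a count lay the same way, at 12955, 10565 and 13755 in sham and 10255, 7474 and 9611 in NTY, and its part in the Bub1 values was not tested. Among all genes tested 13.8% were apart in this direction, so 1 of 9 members is near the background, and 0 members were apart with NTY higher, against 1.24% of genes. With edgeR, 0 of 9 members were called and 0 had an unadjusted p under 0.05, where 0% of 10522 genes were called and 858 had an unadjusted p under 0.05. DESeq2 called 0 members and 6.63% of genes. The median log2 fold change was 0.83 over the members and -0.10 over all genes, with 6 members above and 3 below 0, but over the members it was -1.60 with voom, -0.51 with a replicate block, -2.95 without NTY replicate 1 and -0.27 without NTY replicate 3.

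Primary and primordial follicles were compared within each treatment, to ask what differs at follicle activation. In sham, Bub1 had 0, 44 and 39 counts in primordial and 91, 141 and 263 counts in primary follicles, and its groups did not overlap (log2 fold change 2.28, SE 2.68, adjusted p = 1). Birc5 was apart too, with 0.249, 1.66 and 1.23 TPM in primordial and 1.91, 2.22 and 2.63 TPM in primary follicles. Here too the number of genes with a count was apart in the same direction, at 6147, 9229 and 9852 in primordial and 10565 to 13755 in primary follicles, and its part was not tested. Bub1 and Birc5 are 2 of 9 members, against 14.5% of all genes with primary higher, while 0 members and 1.10% of genes were apart with primary lower. Aurkb had 114, 4 and 11 counts in primordial and 1, 14 and 18 counts in primary follicles (log2 fold change -2.72, SE 2.92, adjusted p = 1), and without primordial replicate 1 its log2 fold change was 0.17.

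For this comparison edgeR called 0 of 9 members and 0.0095% of genes, with 0 members and 976 genes at an unadjusted p under 0.05, and DESeq2 called 0 members and 7.31% of genes. The members' median log2 fold change was 0.060, with 5 above and 4 below 0, beside -0.069 with RLE scaling and 1.07 with voom, 2.68 without primordial replicate 2 and -0.88 without primary replicate 3. The median of all genes depended on the method in microdissected oocytes, more with voom, which also changes the model and its weights, than between the TMM and RLE scalings. With TMM, RLE and voom in turn, the median over all genes was 0.29, -0.00046 and 1.94 here, 0.12, 0.10 and 0.84 for treatment in primordial follicles, -0.10, 0.19 and -1.65 for treatment in primary follicles, 0.081, 0.086 and -0.61 between stages in NTY, and -0.56, -0.28 and -2.48 for the interaction of treatment and stage. In MII oocytes it was 0.0038, 0.037 and -0.16.

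In NTY, Bub1 had 6, 3 and 0 counts in primordial and 80, 3 and 32 counts in primary follicles (log2 fold change 3.70, SE 2.84, adjusted p = 0.73). The groups overlapped, since the primary library at 3 counts lay below the primordial library at 6 counts. The log2 fold change was 0.80 on log2(TPM + 1). Bub1b had 9, 302 and 0 counts in primordial and 2, 66 and 1601 counts in primary follicles (log2 fold change 2.64, SE 3.15, adjusted p = 0.87), and without primary replicate 3 the log2 fold change was -0.97. Without primordial NTY replicate 3 the log2 fold changes were 3.15 for Bub1 and 2.09 for Bub1b. By edgeR 0 of 9 members and 0% of genes were called, with 0 members and 1049 genes at an unadjusted p under 0.05. By DESeq2 0 members and 10.7% of genes were called, with 1 member and 2162 of 10522 genes at an unadjusted p under 0.05. No member was apart, against 2.51% of genes with primary higher and 4.61% with primary lower. The members' median was 1.06, with 6 above and 3 below 0, beside 0.081 over all genes, and it was 0.29 with voom, 0.60 without primordial NTY replicate 3 and -0.17 without primary NTY replicate 3.

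The difference of the NTY effect between primary and primordial follicles was tested as an interaction. Aurkb, with the counts given above, had a difference of 4.36 on the log2 scale (SE 4.04, adjusted p = 0.78). Without primary NTY replicate 1 it was -5.46, which is no bound, since the primary NTY group then held 0 counts. Ttk had a difference of 3.89 (SE 4.32, adjusted p = 0.85), and it was -1.25 without primordial sham replicate 2. Without primordial NTY replicate 3 the differences were 4.02 for Aurkb and 3.44 for Ttk. By edgeR 0 of 9 members and 0.0095% of genes were called, with 0 members and 1246 genes at an unadjusted p under 0.05. DESeq2 called 0 members and 11.6% of genes. The members' median difference was 1.34, with 7 above and 2 below 0, beside -0.56 over all genes, and with voom 2 were above and 7 below 0. It was 0.55 without primordial NTY replicate 3, with 6 above and 4 below 0, -2.01 without primordial sham replicate 2 and -1.80 without primary NTY replicate 1.

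The wider machinery of the same pathway was described by 4 further lists. Among 10 other spindle checkpoint genes, Cdc20, the target of the checkpoint, was the most abundant in MII oocytes at 864 TPM (508 to 1087), followed by Mad2l1bp, whose product helps to silence Mad2, at 311 TPM. Among microdissected oocytes, Cdc20 had 33.3 to 45.5 TPM in primary sham and 0 to 16.7 TPM in primordial sham. These groups did not overlap, as was so for 14.5% of all genes tested with primary higher. The number of genes with a count lay the same way, and its part was not tested. In NTY the stages overlapped, with 0 to 59.9 TPM in primary and 0 to 0.679 TPM in primordial follicles. The most abundant genes of this list in microdissected oocytes by mean were Mad1l1, the partner of Mad2, at 36.5 TPM and Bub3 at 30.3 TPM. The mean of Mad1l1 rests on primordial sham replicate 1, at 245 TPM, and its median of 8.31 TPM was below the 24.7 TPM of Bub3. The 10 other spindle checkpoint genes together summed to 910 to 1754 TPM in MII and 49.6 to 343 TPM in microdissected libraries.

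Among 10 other Aurora partners and centromere guides, Bod1 (583 TPM) and the polo kinase gene Plk1 (370 TPM) led in MII oocytes. Ckap5, a microtubule polymerase gene, (101 TPM) and Plk1 (86.7 TPM) led by mean in microdissected oocytes. There Plk1 ranged from 0 to 383 TPM, with a median of 25.2 TPM and 3 of the 12 libraries at 0. Of 10 outer kinetochore genes, Dsn1 (398 TPM) and the kinetochore motor gene Cenpe (153 TPM) led in MII, and Ndc80 (74.9 TPM) and Spc25 (4.89 TPM) in microdissected oocytes. The mean of Ndc80 rests in part on primary NTY replicate 2, at 419 TPM, and its median was 32.3 TPM. Spc25 owes its place to primary sham replicate 3, at 44.2 TPM, since it was at 0 in 6 of the 12 libraries and had a median of 0.0468 TPM. The 15 genes of the APC/C list had the reverse order of summed levels, with 284 to 521 TPM in MII and 530 to 1533 TPM in microdissected libraries, led by Cdc27 (86.6 TPM) and Anapc10 (55.2 TPM) in MII and by Anapc5 (237 TPM) and Cdc27 (133 TPM) in microdissected oocytes. A list of 14 proliferation genes summed to 782 to 1543 TPM in MII, led by Ccna2 and Mcm4, and to 231 to 1288 TPM in microdissected libraries, led by Top2a and Mcm4. Library method cannot be told apart from stage in any of these levels.

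By edgeR, 0 genes of the 9 pathway and marker lists were called in each of the 6 comparisons. Of those tested, 1 of 82 in MII oocytes had an unadjusted p under 0.05, and 4 to 6 of 91 in each microdissected comparison. Over all genes, 280 of 12209 had such a p in MII oocytes and 858 to 1246 of 10522 in the microdissected comparisons. In MII oocytes the median log2 fold change of NTY against sham was -0.050 over 10 other checkpoint genes, 0.23 over 15 APC/C genes and -0.15 over 14 proliferation genes. It was -0.012 over 10 Aurora partners and -0.0039 over 9 outer kinetochore genes, and both were above 0 with RLE scaling, at 0.021 and 0.030.

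In microdissected oocytes the neighbours of the members in the pathway did not share one direction between treatments. For primordial follicles the median log2 fold change was -1.72 over 9 Aurora partners and -0.93 over 9 outer kinetochore genes, and for 9 other checkpoint genes it was 1.06, but -0.18 with voom and -0.99 without NTY replicate 3. For primary follicles it was -1.82 over the other checkpoint genes and -0.65 over outer kinetochore genes, and 1.10 over Aurora partners, but -0.55 with voom. APC/C genes had a median of 1.26 in primordial and 0.44 in primary follicles, the latter -2.01 with voom. Without NTY replicate 3 the medians in primordial follicles were -2.88 over Aurora partners, -1.35 over outer kinetochore genes and 0.31 over APC/C genes.

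DESeq2 differed from edgeR for these lists. DESeq2 called 4, 3, 2, 9 and 5 genes of the 91 tested, for treatment in primordial and in primary follicles, for stage in sham and in NTY, and for the difference, where 11.5%, 6.63%, 7.31%, 10.7% and 11.6% of all genes were called, so that each count was a smaller share than over all genes. It called 0 in MII oocytes, while limma called 0 with voom and 0 on log2(TPM + 1). Of the other checkpoint genes, DESeq2 called Kntc1 and Trip13 between treatments in primordial follicles, and they were chosen for naming after their values were seen. Kntc1, a part of the kinetochore complex that recruits checkpoint proteins, had 16 to 2552 counts in sham and 0 to 59 in NTY. Trip13, an enzyme that remodels Mad2, had 0 counts in each sham library and 1 to 6398 counts in NTY, with the highest value in the NTY replicate 3 that went against its label. When DESeq2 also filtered on Cook distances, Kntc1 was called and Trip13 was not.

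The fitted values of oocyte markers and of markers of other cells are given beside those of the spindle genes, with 0 markers called by edgeR. In primordial follicles the log2 fold change of NTY against sham was negative for 14 of 15 oocyte markers (median -1.77) and positive for 10 of 12 granulosa markers tested (median 2.05) and 5 of 6 stroma markers (median 1.16). Without NTY replicate 3 these medians were -1.24, 2.40 and -0.15. In primary follicles they were 0.051 (-0.45 with voom), -0.92 and 1.44, and in MII oocytes -0.072 over 14 oocyte and 0.18 over 7 granulosa markers tested, with 0 stroma markers tested. From primordial to primary follicles in sham, the medians of oocyte, granulosa and stroma markers were -0.35 (0.35 with voom), 2.15 and -0.27. In NTY, 15 of 15 oocyte markers were above 0 (median 1.47), beside medians of -1.46 for granulosa and 0.014 for stroma markers (-0.65 with RLE scaling), and without primordial NTY replicate 3 the medians were 1.04, -1.44 and 1.23. For the interaction, 14 of 15 oocyte markers were above 0 (median 1.90), beside -4.37 for granulosa and 0.17 for stroma markers (-0.22 with RLE scaling and -0.15 with voom), and without primordial NTY replicate 3 they were 1.49, -4.38 and 1.60. Of 8 endothelium and blood markers, 2 were tested in microdissected and 3 in MII oocytes. The part of these markers in the values of the spindle genes was not tested.

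The genes most like the 10 members across the 12 microdissected libraries were Efna5 (Pearson r = 0.927, n = 12), Ube2g1 (r = 0.915) and Dennd4b (r = 0.911), out of 6380 genes searched, with likeness taken to the mean log2(TPM + 1) of the members. The points share libraries of very different gene detection. Efna5 had 99.6 TPM in primordial sham replicate 2 and 64.5 TPM in primary sham replicate 1, where the members were high, and 0 TPM in primordial NTY replicate 3 and primary NTY replicate 2, where they were low, but also 0 TPM in primary NTY replicate 3, where the members summed to 59.3 TPM.

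On GRCm38, with the annotation of GENCODE M21, 4 of the 10 genes lie on chromosome 2, namely Aurka (172356190 to 172370535, minus strand), Bub1 (127801122 to 127831865, minus strand), Bub1b (118598211 to 118641591, plus strand) and Tpx2 (152847964 to 152895321, plus strand), under the identifiers ENSMUSG00000027496, ENSMUSG00000027379, ENSMUSG00000040084 and ENSMUSG00000027469. Aurkb (69045647 to 69051664) and Birc5 (117849251 to 117855743) lie on chromosome 11, Aurkc on chromosome 7 (6995300 to 7003091), Mad2l1 on chromosome 6 (66535390 to 66547220) and Ttk on chromosome 9 (83834689 to 83872389), all on the plus strand, and Incenp on chromosome 19 (9872296 to 9899551, minus strand). In this order their identifiers are ENSMUSG00000020897, ENSMUSG00000017716, ENSMUSG00000070837, ENSMUSG00000029910, ENSMUSG00000038379 and ENSMUSG00000024660. All are annotated as protein coding.

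Promoters of 7 members were found for GRCm38.p6, as the 250 bases before the RefSeq gene start. This start differed from the GENCODE start given above for some members. The windows of Aurkc and Bub1 reach into the annotated gene, and the start used for Mad2l1 matched no annotated transcript. The promoters were searched on both strands for CCAAT, the box bound by NF-Y, and for the cell cycle element CHR, TTTGAA. Both are known from genes of the G2 and M phases. CCAAT was present in 4 of 7 (Aurka, Bub1, Bub1b and Ttk), against 33.8% of 32851 promoters, and TTTGAA in 0 of 7, against 16.0%. A match is a description of letters and not of a binding site. The promoters of Bub1b (chr2:118597961-118598210, plus strand) and Aurka (chr2:172370571-172370820, minus strand) are shown as those of the members with the highest MII levels whose window lies outside the annotated gene, with CCAAT or its reverse complement ATTGG in capitals.
Bub1b: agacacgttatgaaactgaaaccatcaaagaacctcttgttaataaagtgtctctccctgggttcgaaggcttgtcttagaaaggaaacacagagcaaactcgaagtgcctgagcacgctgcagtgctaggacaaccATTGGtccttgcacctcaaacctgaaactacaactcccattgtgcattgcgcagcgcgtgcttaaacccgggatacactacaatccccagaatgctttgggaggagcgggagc
Aurka: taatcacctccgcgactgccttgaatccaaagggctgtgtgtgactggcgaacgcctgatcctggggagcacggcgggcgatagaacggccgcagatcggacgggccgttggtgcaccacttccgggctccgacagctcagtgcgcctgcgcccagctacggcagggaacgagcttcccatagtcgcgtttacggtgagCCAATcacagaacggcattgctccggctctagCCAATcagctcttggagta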

How the data were processed

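The deposited counts were made by the authors, whose notes name Trim Galore 0.4.1, TopHat2, featureCounts and the mm10 build, and the deposited TPM values are these counts per gene length, scaled to 1000000 per library by the authors. Annotation, gene lengths, strand setting and the treatment of reads that match several genes are not stated there.

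One fit with edgeR 4.0.16 held the 12 microdissected libraries and another the 6 MII libraries, in R 4.3.3 (TMM, filterByExpr by group, robust quasi-likelihood test, Benjamini-Hochberg over all genes tested, adjusted p under 0.05). The same code was also run on simulated counts. Their spread was set in the simulation and not taken from these libraries, so that run does not show what could be found here. No replicate block was used, since deviations of equally numbered libraries had correlations of -0.0823 to 0.0853. Alternatives were RLE scaling, DESeq2 1.42.0 with and without its Cook filter, limma 3.58.1 with voom quality weights or on log2(TPM + 1), other filters on low counts, a replicate block, only the 2 groups compared, primary NTY replicates 2 and 3 summed because their library codes are alike, and leaving out each library. Shares, levels and sequences were computed in Python 3.11.15.

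All 10 members were named with values, and fold changes were printed for the members with the smallest unadjusted p, 3 in MII oocytes and 2 elsewhere. Of each list (other spindle checkpoint, other Aurora partners and centromere guides, outer kinetochore, APC/C, proliferation, oocyte, granulosa, stroma, endothelium and blood), the 2 most abundant genes in MII and in microdissected libraries were taken. The 3 most alike genes were those with the highest Pearson r to the members' mean log2(TPM + 1), among genes outside the lists with a mean of at least 10 TPM. The members and lists were chosen with earlier results of these data known.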

Additional observations from a re-analysis of the deposited data

How the results depend on the processing

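The number of members called was 0 under each of the 94 alternatives that could be fitted, over the 6 comparisons. Asking for 10 or more counts in each of the libraries compared left 0 members for treatment in primordial follicles, for treatment in primary follicles and for the difference, and so gave no value there. It left 1 member in each comparison of stages and 8 in MII oocytes. Of the printed log2 fold changes, 188 alternatives kept the direction and 9 reversed it. With a replicate block, Aurkb was at -0.30 for treatment in primary follicles and at -1.03 for the difference, and the cause was not tested.

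The other 7 reversals came from leaving out 1 library. The values without 1 library ran from -2.09 to 5.99 for Tpx2 with treatment in primordial follicles, from -6.26 to 4.18 for Aurkb with treatment in primary follicles, from -3.39 to 0.17 for Aurkb between stages in sham, from -0.97 to 6.81 for Bub1b between stages in NTY, from -5.46 to 6.81 for Aurkb and from -1.25 to 9.64 for Ttk in the difference, and from -0.036 to 0.78 for Bub1b in MII oocytes. Without primary NTY replicate 1 the primary NTY group held 0 counts of Aurkb. Without primordial NTY replicate 2 the primordial NTY group held 0 counts of Ttk. The values of these genes without those libraries are therefore no bounds. Where 1 group then held 2 libraries, these were assumed to vary like the other groups.

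The Aurkc share in MII oocytes was higher in NTY by 4.85 points on counts (exact permutation p = 0.1) and by 2.73 to 5.64 points without 1 library (exact permutation p = 0.1 to 0.2). With a replicate block the exact p was 0.25, the smallest that 3 pairs allow. A minimum of 100 counts lowered the median number of members per microdissected library from 6 to 2.5, a stricter minimum by construction, and with 1 count it was 8.5.

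Over all genes the tools differed. edgeR called 1, 0, 1, 0, 1 and 0 genes for treatment in primordial and primary follicles, stage in sham and NTY, the difference, and treatment in MII oocytes. DESeq2 called 1213, 698, 769, 1127, 1216 and 29, its Cook filter left 760, 479, 503, 697, 742 and 29, and voom gave 0, 58, 104, 2, 6 and 0. The cause was not tested. At this depth, 0 counts of a member in a library are compatible with up to 3 counts.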
